A study of Drosophila melanogaster with 6 samples.

Results

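The nicotinic acetylcholine receptor subunits are the 10 genes of the fly genome that encode alpha or beta subunits of this receptor, 7 alpha and 3 beta. They were picked by name from an RPKM table of 14604 genes (reads mapped to a gene, scaled to gene length and library size), where 9 carry the subunit name as their gene symbol. The tenth, nAcRalpha-18C, is listed as gfA and was found through its alias. All 10 were above the table's lowest value in every library, whereas 9853 of the 14604 genes were above it in at least 1 library and could be tested. RNAseq was performed on heads of Canton S males of WT genotype, 3 to 5 days old, with 3 libraries from PQ-fed flies and 3 from sucrose-fed flies. The PQ-fed flies received 5 mM paraquat (PQ, a redox-cycling herbicide used to model Parkinson's disease) in 2.5% sucrose, and the sucrose-fed flies received 2.5% sucrose alone, both for 12 h. RNA came from pooled heads, 30 males per group by the labels, so a library averages over animals and over all cell types of the head. The libraries are called PQ 1 to 3 and sucrose 1 to 3 after their replicate numbers.

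Acetylcholine is the main excitatory transmitter of the insect central nervous system, and nicotinic receptors are the cation channels that answer it at the synapse. Each channel is a ring of subunits around a pore. An alpha subunit carries the pair of adjacent cysteines that marks the agonist site, and a beta subunit lacks it. These receptors are the targets of neonicotinoid and spinosyn insecticides, and in the fly head they are known mainly from neurons.

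Read depth per gene is not known from RPKM, so the errors given are those between libraries. No value in the table is below 1 RPKM, and the share of genes at that value was 34.8% to 35.5% per library, so it was treated as a floor. The labelled tissue carried its markers: all 16 neuronal marker genes were above the floor in at least 1 library, with a summed level of 3414 to 3659 RPKM in PQ-fed and 3237 to 3741 RPKM in sucrose-fed heads, and 1 of 6 testis and accessory gland markers was. The libraries numbered 1 stood apart in other tissues. The median fat body marker lay 0.33 above its own mean of the 6 libraries in PQ 1 and 0.38 above it in sucrose 1 on the log2 scale, whereas the median muscle marker lay at -0.41 in PQ 1 and -0.24 in sucrose 1. The subunits' differences are therefore given below without these libraries as well. The labels and the study's methods call the replicates independent, without saying what was separate, so p-values measure the spread between these libraries.

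The genes differ widely in size and arrangement. Coordinates are those of the table, on dm3, and exon structure is from the release 6 annotation. nAcRalpha-96Aa (chr3R:20226948-20282651, minus strand), nAcRalpha-96Ab (chr3R:20311164-20316875, plus strand) and nAcRbeta-96A (chr3R:20334937-20340823, minus strand) are neighbours. A stretch of 28512 bases with 1 gene of the table, CG31128, separates the first pair, and 18061 bases with 0 genes of the table separate the second. The longest interval is that of nAcRalpha-30D (chr2L:9796948-9886214, minus strand), with 89267 bases, 16 separate exon blocks and 7 annotated transcripts. The shortest is that of nAcRbeta-21C (chr2L:545148-547096, plus strand), with 1949 bases, 4 exon blocks and 1 transcript. The remaining genes are nAcRalpha-34E (chr2L:14040171-14089437, plus strand), nAcRalpha-80B (chr3L:23199770-23277304, plus strand), nAcRbeta-64B (chr3L:4429370-4435999, plus strand), nAcRalpha-7E (chrX:8176840-8223711, minus strand) and nAcRalpha-18C (chrX:19222594-19242477, minus strand).

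In levels the family was dominated by 1 gene. nAcRbeta-64B averaged 249.8 ± 2.46 RPKM in PQ-fed and 247.0 ± 8.43 RPKM in sucrose-fed heads (SD, n = 3 each), which was 43.9% ± 1.77 and 45.0% ± 0.88 of the summed RPKM of the 10 subunits in these groups. It stood above 96.8% of the tested genes in PQ-fed heads and above 96.6% in sucrose-fed heads. Its mean was 3.23 times that of the next subunit, nAcRalpha-18C, in PQ-fed heads and 3.34 times in sucrose-fed heads. At the other end, nAcRbeta-21C had 1.55% ± 0.67 of the sum in PQ-fed and 0.78% ± 0.75 in sucrose-fed heads. The 3 beta genes together made 50.1% ± 1.41 of the sum in PQ-fed and 51.0% ± 0.99 in sucrose-fed heads, most of it from nAcRbeta-64B.

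**Figure D1:**
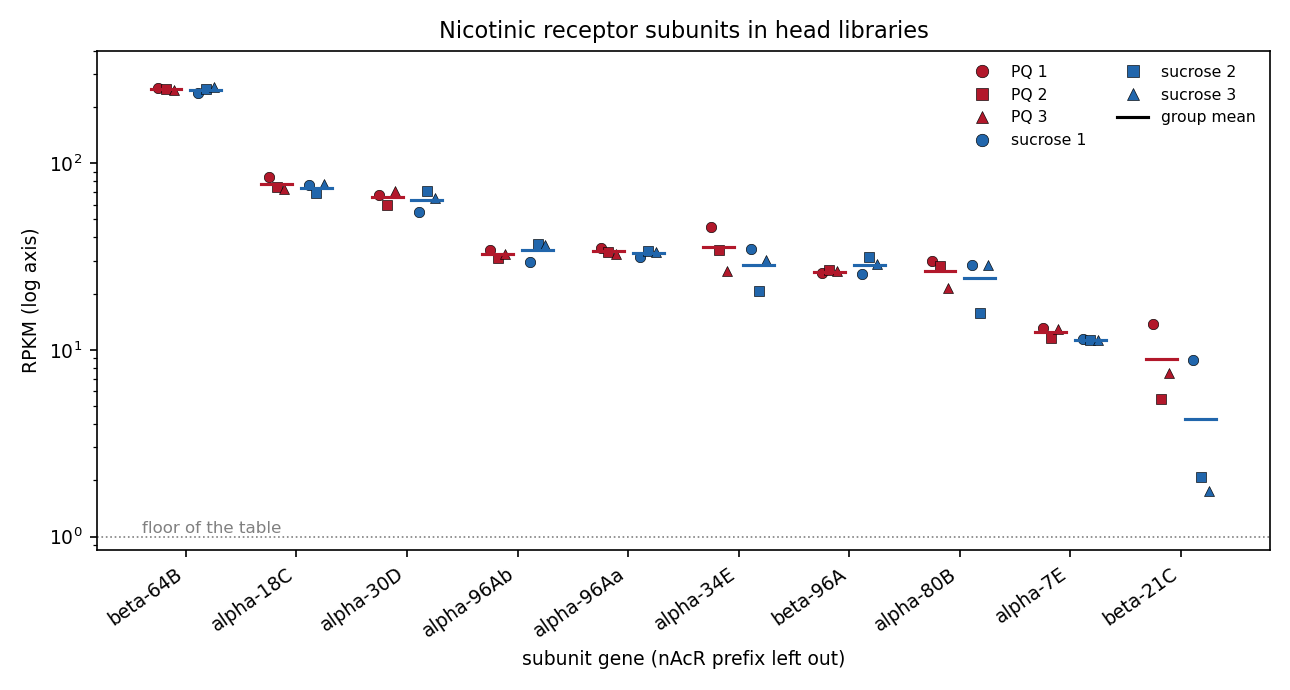
RPKM of each subunit gene in each library (log axis), PQ-fed in red and sucrose-fed in blue, with marker shapes for the replicate number and a bar for each group mean. nAcRbeta-64B lies between 238.0 and 254.7 RPKM in all libraries, the other subunits lie at 83.9 RPKM or less, and nAcRbeta-21C has the widest spread.

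In sucrose-fed heads the order from high to low was nAcRbeta-64B, nAcRalpha-18C, nAcRalpha-30D, nAcRalpha-96Ab, nAcRalpha-96Aa, nAcRalpha-34E, nAcRbeta-96A, nAcRalpha-80B, nAcRalpha-7E and nAcRbeta-21C. In this order 3 gaps held within both feedings, in that every library of the higher gene was above every library of the lower one. They lay between nAcRbeta-64B and nAcRalpha-18C, between nAcRalpha-30D and nAcRalpha-96Ab (2.03 times in PQ-fed and 1.85 times in sucrose-fed heads), and between nAcRalpha-80B and nAcRalpha-7E (2.11 times in PQ-fed and 2.14 times in sucrose-fed heads). The levels of the 5 genes from nAcRalpha-96Ab to nAcRalpha-80B overlapped with those of their neighbours within each feeding, and their order differed between feedings. nAcRalpha-18C was apart from nAcRalpha-30D in PQ-fed heads only, and nAcRalpha-7E from nAcRbeta-21C in sucrose-fed heads only. RPKM is per length of the gene model that the authors used, which is not given in the sources used here.

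No subunit passed the test between PQ-fed and sucrose-fed heads. With limma on log2(RPKM + 0.5), 0 of 10 were called at an adjusted p under 0.05, beside 0.0812% of all 9853 tested genes, and 0 of 10 had an unadjusted p under 0.05, beside 3.89% of all tested genes (2.21% higher and 1.67% lower in PQ-fed heads). Adjusted p-values of the 10 from limma were 0.951 to 0.972. Of the log2 fold changes 8 were positive and 2 negative, with a median of 0.06, whereas 42.2% of all tested genes were positive (52.3% after scaling by trimmed means of M-values) and their median was -0.02. This balance changed with the libraries used. With both libraries numbered 1 left out 5 subunits were positive and 5 negative, with a median of 0.00340, beside 42.8% of all tested genes positive. It was 6 and 4 without sucrose 1 and 7 and 3 without sucrose 2. It stayed at 8 and 2 without PQ 1, PQ 2, PQ 3 or sucrose 3, with a median of 0.0276 without PQ 1. With library quality weights 4 were positive and 6 negative, with a median of -0.02. The groups of libraries did not overlap for 1 of 10 subunits, nAcRalpha-7E, beside 7.57% of all tested genes (3.11% with all PQ-fed libraries above and 4.47% with all below). For 7 subunits the 95% intervals were narrow, from 0.804-fold at the lowest bound to 1.26-fold at the highest. For nAcRalpha-34E, nAcRalpha-80B and nAcRbeta-21C they were wider. With both libraries numbered 1 left out, the log2 fold changes of the alpha subunits ran from -0.20 for nAcRalpha-96Ab to 0.26 for nAcRalpha-34E, and 2 of 10 subunits, nAcRalpha-96Ab and nAcRbeta-21C, had an unadjusted p under 0.05, beside 8.87% of all tested genes. None of the 10 was called by limma there, with adjusted p-values from 0.108 for nAcRbeta-21C to 0.946 for nAcRbeta-64B. In bulk heads fewer cells that express a gene cannot be told apart from less RNA per cell.

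**Figure D2:**
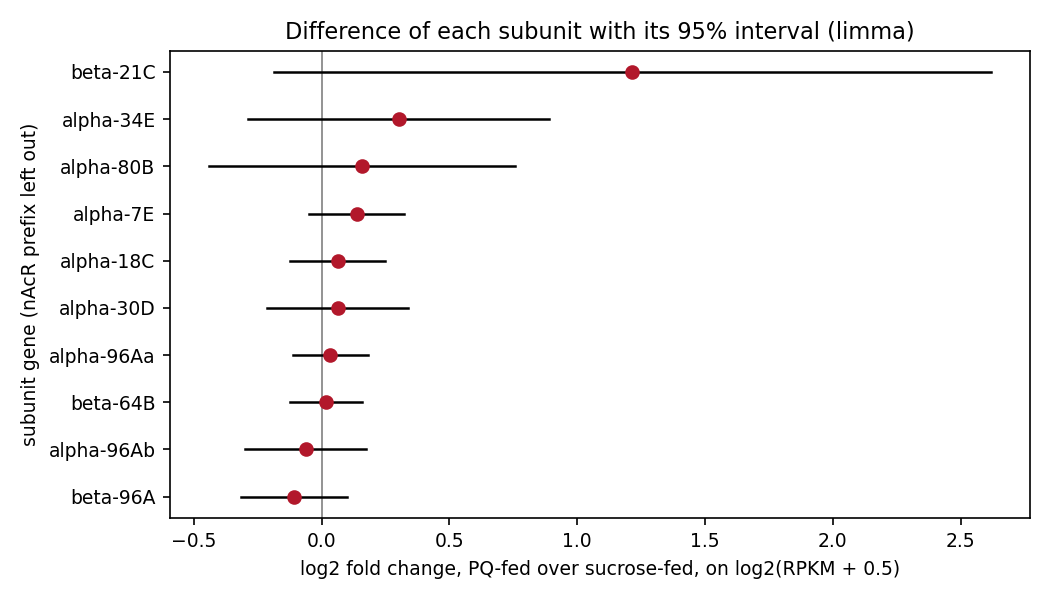
Log2 fold change of each subunit, PQ-fed over sucrose-fed, as a point with its 95% interval from limma on log2(RPKM + 0.5), with 3 libraries a group. All 10 intervals cross 0, and that of nAcRbeta-21C is the widest, from -0.19 to 2.62.

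Among the alpha subunits, nAcRalpha-96Aa (alpha1), one of the genes in which mutations give neonicotinoid resistance in flies, had 35.1, 33.3 and 32.7 RPKM in PQ-fed heads, against 31.5, 33.9 and 33.3 RPKM in sucrose-fed heads. The groups overlapped and its log2 fold change was 0.03 (95% interval -0.11 to 0.18), against 0.00588 without PQ 1, 0.00324 without sucrose 1 and -0.03 without both. nAcRalpha-96Ab (alpha2), its neighbour, had 34.3, 31.0 and 32.8 RPKM in PQ-fed heads, against 29.7, 36.9 and 36.4 RPKM in sucrose-fed heads. The sucrose-fed libraries held both the lowest and the highest value, and the log2 fold change was -0.06 (-0.30 to 0.17). It was -0.16 without sucrose 1, -0.20 without both libraries numbered 1 (unadjusted p of 0.0385, adjusted p of 0.558 from limma) and -0.00786 without sucrose 2. The mir-1017 gene lies within nAcRalpha-96Ab in the release 6 annotation and shares 0 bases with its exons.

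nAcRalpha-7E (alpha3) had 13.1, 11.5 and 13.0 RPKM in PQ-fed heads, against 11.4, 11.3 and 11.4 RPKM in sucrose-fed heads. All PQ-fed libraries were above all sucrose-fed ones, a pattern shown by 3.11% of all tested genes, though PQ 2 exceeded the highest sucrose-fed library only slightly. Its log2 fold change was 0.14 (-0.05 to 0.32), with an unadjusted p of 0.122 and an adjusted p of 0.951 from limma, and 0.11 without both libraries numbered 1. Its exons share 251 bases with CG1636, a gene on the opposite strand that stood at 31.1 to 33.8 RPKM in PQ-fed and 32.5 to 34.7 RPKM in sucrose-fed heads. Whether counting used strand is not given in the sources used here, so reads from the shared bases cannot be assigned to either gene.

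nAcRalpha-80B (alpha4), which is known in flies for mutations that alter sleep, had 29.98, 28.0 and 21.4 RPKM in PQ-fed heads, against 28.5, 15.7 and 28.6 RPKM in sucrose-fed heads. One library in each feeding was low, PQ 3 and sucrose 2, and the rest lay close together. The log2 fold change was 0.16 (-0.44 to 0.76), and it was -0.12 without sucrose 2 and 0.20 without both libraries numbered 1. In the release 6 annotation 49 transposable elements overlap this gene and 5 of them share bases with its exons, so reads from those exons may match elsewhere in the genome. The non-coding RNA gene CR46475, on the opposite strand, shares 247 bases with the exons of nAcRalpha-80B. As for nAcRalpha-7E, reads from the shared bases cannot be assigned to either gene.

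nAcRalpha-34E (alpha5), one of the alpha subunits most like the vertebrate alpha7 subunit, had 45.5, 34.2 and 26.4 RPKM in PQ-fed heads, against 34.6, 20.8 and 30.2 RPKM in sucrose-fed heads. PQ 1 was the highest library and sucrose 2 the lowest, and the groups overlapped. The log2 fold change was 0.30 (-0.29 to 0.89). It was 0.11 without PQ 1, 0.09 without sucrose 2 and 0.26 without both libraries numbered 1. Its interval also holds nimC4 (chr2L:14047584-14048863), on the same strand, a gene for a phagocytic receptor that shares 0 bases with the exons of nAcRalpha-34E in release 6. Its start overlaps CG31771 on the opposite strand (chr2L:14039843-14043164), which stood at 1.202 to 3.298 RPKM in PQ-fed and 1.04 to 2.09 RPKM in sucrose-fed heads.

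nAcRalpha-30D (alpha6), the target of spinosad and a heavily RNA-edited transcript, had 67.8, 59.7 and 71.3 RPKM in PQ-fed heads, against 54.6, 71.2 and 65.1 RPKM in sucrose-fed heads. The groups overlapped, with sucrose 1 the lowest. The log2 fold change was 0.06 (-0.21 to 0.34), and it was -0.04 without sucrose 1 and -0.06 without both libraries numbered 1. nAcRalpha-18C (alpha7), which acts in the giant fibre escape circuit, had 83.9, 74.8 and 73.1 RPKM in PQ-fed heads, against 75.9, 68.9 and 77.0 RPKM in sucrose-fed heads. PQ 1 was the highest, the other libraries of both feedings were mixed, and the log2 fold change was 0.06 (-0.12 to 0.25). It was 0.00259 without PQ 1, 0.01 without sucrose 2 and 0.02 without both libraries numbered 1.

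Of the beta subunits, nAcRbeta-64B (beta1) was the most even. It had 251.7, 250.5 and 247.0 RPKM in PQ-fed heads, against 238.0, 248.3 and 254.7 RPKM in sucrose-fed heads, so that the highest library was 1.07 times the lowest. Its residual SD was above that of only 3.34% of the tested genes, and its log2 fold change was 0.02 (-0.12 to 0.16). It was -0.01 without sucrose 1 and -0.02 without both libraries numbered 1. nAcRbeta-96A (beta2), another gene in which mutations give neonicotinoid resistance in flies, had 25.8, 26.7 and 26.3 RPKM in PQ-fed heads, against 25.4, 31.3 and 28.7 RPKM in sucrose-fed heads. Sucrose 2 and 3 were above all PQ-fed libraries and sucrose 1 was below them, and the log2 fold change was -0.11 (-0.31 to 0.10). It was -0.19 without sucrose 1 (unadjusted p of 0.0371, adjusted p of 0.454 from limma), -0.17 without both libraries numbered 1 and -0.04 without sucrose 2. Without sucrose 1, 10.88% of all tested genes had an unadjusted p under 0.05 from limma, against 3.89% with all libraries.

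nAcRbeta-21C (beta3), the smallest gene of the family and the lowest by the mean of each group, had the largest difference of the 10 subunits and also the largest spread. It had 13.7, 5.46 and 7.56 RPKM in PQ-fed heads, against 8.88, 2.08 and 1.76 RPKM in sucrose-fed heads. The highest library of each feeding was the one numbered 1, and sucrose 1 was above PQ 2 and PQ 3, so the groups overlapped, whereas sucrose 2 and 3 were below all the others. The log2 fold change was 1.22 ± 0.59 (SE; 95% interval -0.19 to 2.62), with an unadjusted p of 0.0789 and an adjusted p of 0.951 from limma, higher in PQ-fed heads by means of 8.92 ± 4.30 and 4.24 ± 4.02 RPKM (PQ-fed and sucrose-fed, SD, n = 3 each). Its absolute log2 fold change exceeded that of 99.8% of the tested genes, and its residual SD exceeded that of 99.6%. The study had placed this gene in its own list of PQ-responding genes, chosen from the experiment to which these libraries belong, so its direction here is not independent evidence. The other 9 subunits had log2 fold changes from -0.11 to 0.30.

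This difference depended on which libraries were used. Without sucrose 1 the log2 fold change was 1.87, with an unadjusted p of 0.00212 and an adjusted p of 0.264 from limma. Under that omission 10.88% of all tested genes had an unadjusted p under 0.05 from limma. With both libraries numbered 1 left out the log2 fold change of nAcRbeta-21C was 1.52 ± 0.18 (SE). This omission takes out sucrose 1, the library through which the groups overlapped. The mean was then 6.51 RPKM in PQ-fed and 1.92 RPKM in sucrose-fed heads, a ratio of 3.39. The adjusted p from limma was then 0.108. Without sucrose 3 the log2 fold change was 0.84. Among 18 alternatives its adjusted p from limma ranged from 0.0855, with library quality weights, to 1, so the gene was called under 0 of them.

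In release 6 all 1532 exon bases of nAcRbeta-21C are shared with exons of Ets21C, the gene of an ETS transcription factor on the opposite strand. In the dm3 table the intervals of these genes do not overlap. Ets21C stood at 1.38, 1 and 1.14 RPKM in PQ-fed heads, against 1, 1.04 and 1 RPKM in sucrose-fed heads, below nAcRbeta-21C in all 6 libraries. As counting by strand is not stated, the share of antisense reads in the nAcRbeta-21C values was not tested.

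The genes whose profile over the 6 libraries was most like that of nAcRbeta-21C were sought among all tested genes, by the root mean square difference of mean-centred log2(RPKM + 0.5). The 5 nearest were TotA (0.36), TotX (0.38), nimC4 (0.45), TotC (0.48) and CG6188 (0.49). TotA, TotX and TotC encode Turandot stress proteins secreted into the hemolymph, and CG6188 is annotated as Gnmt, a glycine N-methyltransferase. TotA had 1128, 342.6 and 399.3 RPKM in PQ-fed heads, against 716.5, 230.4 and 234.5 RPKM in sucrose-fed heads. Like nAcRbeta-21C, it was highest in PQ 1, next in sucrose 1 and low in sucrose 2 and 3. nimC4 had 4.25, 1.71 and 2.86 RPKM in PQ-fed heads, against 2.00, 1 and 1 RPKM in sucrose-fed heads, at the floor in sucrose 2 and 3. The nearest other subunit, nAcRalpha-34E, lay at 0.76. These profiles share their 6 libraries, and the distances are a description. The study also reported TotA, TotX and nimC4 as induced by PQ in the same experiment, so their likeness is not independent evidence.

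**Figure D3:**
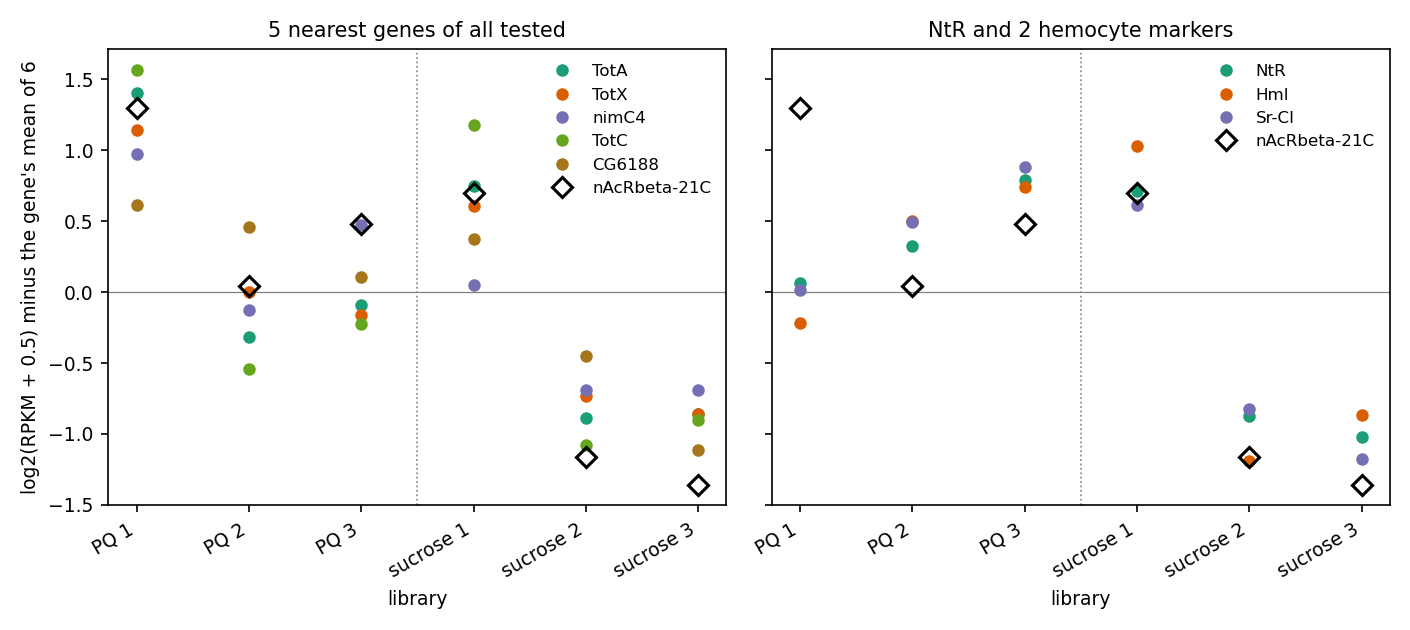
Mean-centred log2(RPKM + 0.5) of nAcRbeta-21C (open diamonds) in each library, beside its 5 nearest genes of all tested (left) and beside NtR and 2 hemocyte markers, Hml and Sr-CI (right). nAcRbeta-21C and the Turandot genes are highest in PQ 1, all genes shown lie below their means in sucrose 2 and 3, and the genes on the right are higher in PQ 3 and sucrose 1 than in PQ 1. The hemocyte markers crq and Pxn, which did not share the low values in sucrose 2 and 3, are not shown.

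Markers of other cell types moved over the same libraries. The 6 fat body markers were all above the floor in all libraries, and their summed level was 824 to 1100 RPKM in PQ-fed and 784 to 1346 RPKM in sucrose-fed heads, with the highest sum of each feeding in the library numbered 1. The 7 hemocyte markers had summed levels of 115.3 to 138.3 RPKM in PQ-fed and 122.2 to 136.5 RPKM in sucrose-fed heads, mostly from crq and Pxn. Of the more specific ones, Hml had 3.44, 5.99 and 7.16 RPKM in PQ-fed heads, against 8.86, 1.51 and 2.01 RPKM in sucrose-fed heads. Sr-CI had 4.17, 6.02 and 8.03 RPKM in PQ-fed heads, against 6.57, 2.12 and 1.55 RPKM in sucrose-fed heads. Both were low in sucrose 2 and 3, as nAcRbeta-21C was, but neither was highest in PQ 1. crq and Pxn did not share the low values in sucrose 2 and 3, and both were lowest in PQ 1. crq had 68.2, 79.7 and 75.7 RPKM in PQ-fed heads, against 77.7, 73.9 and 77.7 RPKM in sucrose-fed heads. Pxn had 36.2, 39.9 and 41.1 RPKM in PQ-fed heads, against 39.2, 41.6 and 38.1 RPKM in sucrose-fed heads. The study reported Hml, Sr-CI and He as induced by PQ in the same experiment. Their low values in sucrose-fed libraries are therefore not independent evidence. He and NimC1 were at or near the floor, and stood at 1 RPKM in sucrose 2 and 3. He had 1.21, 1.55 and 2.14 RPKM in PQ-fed heads, against 1.17, 1 and 1 RPKM in sucrose-fed heads. All PQ-fed libraries were thus above all sucrose-fed ones, as for 3.11% of all tested genes. Its unadjusted p was 0.0318, and its adjusted p was 0.951 from limma, with 3.89% of all tested genes at an unadjusted p under 0.05. The part of these cells in the nAcRbeta-21C values was not tested.

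Between subunits, the most alike profiles among the 45 pairs were those of nAcRalpha-96Aa and nAcRbeta-64B (0.03), both nearly flat. The next were nAcRalpha-96Ab and nAcRbeta-96A (0.07), the second pair of neighbours at 96A, which were lowest in sucrose 1 and highest in sucrose 2. The remaining subunit at 96A, nAcRalpha-96Aa, lay at 0.09 from nAcRalpha-96Ab. nAcRalpha-30D was nearest to nAcRalpha-96Ab as well (0.09), and nAcRalpha-7E and nAcRalpha-18C were nearest to nAcRalpha-96Aa (0.08 each). nAcRalpha-80B and nAcRalpha-34E were each other's nearest subunit (0.15).

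**Figure D4:**
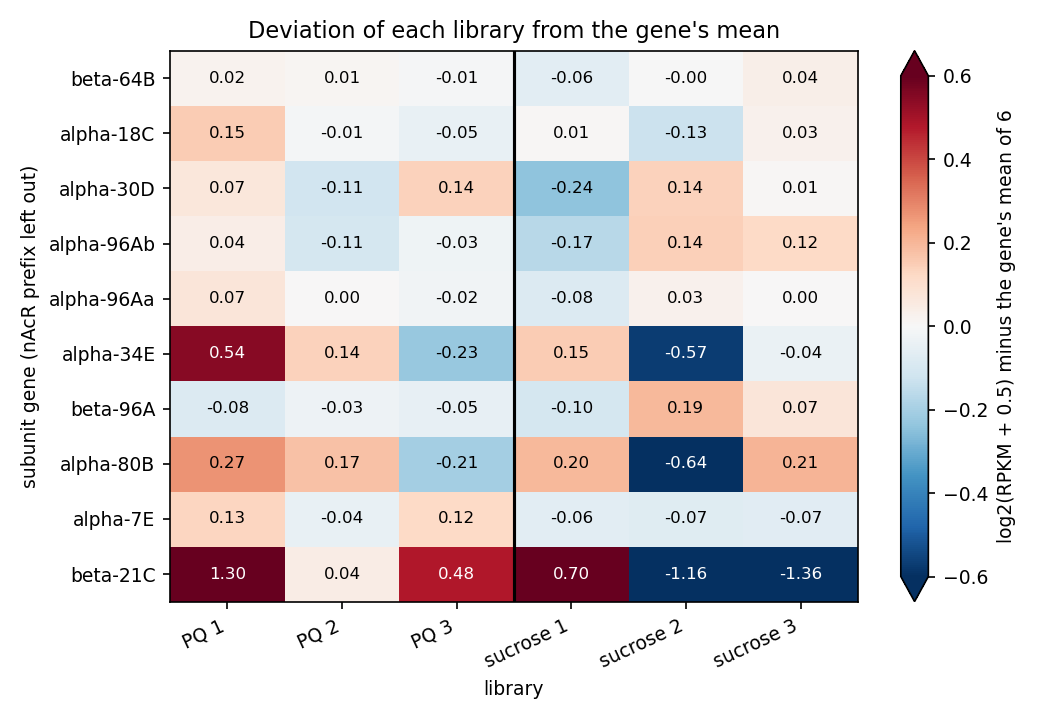
Log2(RPKM + 0.5) of each subunit in each library minus the gene's mean of 6 libraries, red above and blue below the mean, with colours ending at 0.6 in either direction. nAcRalpha-34E and nAcRalpha-80B are lowest in sucrose 2 (-0.57 and -0.64), and nAcRbeta-21C lies at 1.30 in PQ 1 and -1.36 in sucrose 3.

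The libraries did not take equal parts in these differences. All 10 subunits had their lowest value in a sucrose-fed library, 5 in sucrose 1, 4 in sucrose 2 and 1 in sucrose 3, and 6 had their highest value in PQ 1. The shares of all tested genes that were lowest or highest in each library were not counted. These counts, and those of the markers below, are therefore a description only. The summed level of the 10 subunits was 600.9, 555.3 and 551.6 RPKM in PQ-fed heads, against 538.3, 540.4 and 567.1 RPKM in sucrose-fed heads. PQ 1 was highest, and sucrose 3 was above PQ 2 and PQ 3. Without both libraries numbered 1 the ratio of the means was 0.999. The low values of nAcRalpha-80B and nAcRalpha-34E in sucrose 2 were shared with part of the neuronal markers: 10 of 16 were lowest in sucrose 2, where the median marker lay at -0.18, and 1, fne (chosen after its values were seen), was highest there with 166.5 RPKM. Of the photoreceptor markers, 13 of 14 were highest in sucrose 2, where the median marker lay at 0.13. Lowest values in sucrose 2 were not confined to neuronal markers. They were found for 4 of 12 glial markers, with 1 highest there, and for 2 of 12 muscle markers, with 7 highest there. The active zone scaffold gene brp had 60.4, 52.1 and 41.6 RPKM in PQ-fed heads, against 56.3, 29.3 and 46.4 RPKM in sucrose-fed heads, low in PQ 3 and sucrose 2 as these subunits were. The sodium channel gene para had 113.1, 82.8 and 86.8 RPKM in PQ-fed heads, against 83.9, 72.0 and 82.2 RPKM in sucrose-fed heads, lowest in sucrose 2 but not low in PQ 3. The part of this library difference in the subunits' values was not tested.

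The other genes of cholinergic signalling showed no call either. Of 11 listed genes, 10 were tested and CG12796 was at the floor in all libraries. With limma 0 of 10 passed in either direction, beside 0.0812% of all tested genes. An unadjusted p under 0.05 from limma was found for 0 of 10, beside 3.89% of all tested genes. With shares this small, counts of 0 are no result about these genes. Their median log2 fold change was -0.01. Cha, the choline acetyltransferase, had 68.1, 72.2 and 69.7 RPKM in PQ-fed heads, against 71.8, 74.2 and 75.5 RPKM in sucrose-fed heads. PQ 2 was above sucrose 1, and the log2 fold change was -0.08 (-0.21 to 0.05). Ace, the acetylcholinesterase, had 81.2, 74.0 and 64.3 RPKM in PQ-fed heads, against 77.3, 54.6 and 71.7 RPKM in sucrose-fed heads. It too was lowest in sucrose 2, as were 4 of the 10 genes, and its log2 fold change was 0.12 (-0.24 to 0.47). CG30296, the fly gene of the receptor chaperone RIC-3, had 68.2, 79.0 and 78.0 RPKM in PQ-fed heads, against 73.0, 83.9 and 84.3 RPKM in sucrose-fed heads. It was lowest in the library numbered 1 of each feeding, with a log2 fold change of -0.10 (-0.31 to 0.11). The largest difference of the list was that of bou, a Ly6 family gene, with 18.4, 24.1 and 25.9 RPKM in PQ-fed heads, against 25.4, 28.5 and 22.4 RPKM in sucrose-fed heads. The groups overlapped, PQ 1 was lowest, and the log2 fold change was -0.16 (-0.51 to 0.19).

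The remaining Cys-loop receptor genes, which encode mainly chloride channels gated by GABA, glutamate, histamine or protons, were 13 in number. Of these 11 were tested, and CG6927 and CG11340 were at the floor in all libraries. With limma 0 of 11 passed, beside 0.0812% of all tested genes, and 0 of 11 had an unadjusted p under 0.05, beside 3.89%. The median log2 fold change was 0.02. Their summed level was 326.8 to 341.1 RPKM in PQ-fed and 317.9 to 341.8 RPKM in sucrose-fed heads, below that of the nicotinic subunits in every library. NtR had the largest difference, with 4.98, 6.06 and 8.57 RPKM in PQ-fed heads, against 8.09, 2.36 and 2.09 RPKM in sucrose-fed heads. As for nAcRbeta-21C, sucrose 1 lay within the PQ-fed values and sucrose 2 and 3 below all of them. Its log2 fold change was 0.79 ± 0.47 (SE; -0.33 to 1.90), with an unadjusted p of 0.137 and an adjusted p of 0.951 from limma. NtR is also in the study's own list, so its direction is not independent evidence either.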

How the data were processed

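The authors deposited RPKM values for 6 head libraries and had mapped paired-end reads to dm3 with TopHat2 2.0 (submitters' processing notes). Trimmed means of M-values are named as the normalization in the study's methods. The counting tool, its use of strand and the gene lengths are not given in the sources used here. A second deposited table holds the authors' fold changes and p-values and was not used. The study's methods name more replicates per feeding than the 3 analysed here.

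Values were transformed to log2(RPKM + 0.5) and fitted with limma 3.58.1 in R 4.3.3 (mean-variance trend in eBayes, group as the only term). Benjamini-Hochberg adjustment covered 9853 genes, after leaving out 4751 at the floor of 1 RPKM in all libraries, with a threshold of 0.05. This scale understates changes of low genes. No counts were at hand, so the precision is that between libraries. The procedure was run on simulated data, with noise drawn independently for each gene and library. Such data hold no deviation shared between libraries. All 10 subunits are named, the 5 genes nearest to nAcRbeta-21C, the nearest subunit of each, and of each list at most 4 genes, taken from the 4 with the smallest p. CG12796, CG6927, CG11340, crq, Pxn, fne and the overlapping genes are named for their position, floor values or list. The members and gene lists were chosen with earlier results of these data known, so no pattern here is independent support for them. Names and exon structure came from the release 6 annotation, used without its coordinates. Protein sequences were not analysed here. Alternatives were a pseudocount of 0.1 or 1, testing every gene, requiring a mean RPKM of 5, scalings by the median gene, quantiles or trimmed means, eBayes without trend or robust, weights for library quality, a block for the replicate number, and omission of each library or of both numbered 1.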

Additional observations from a re-analysis of the deposited data

How the results depend on the processing

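Under 18 alternatives 0 of the 10 subunits were called by limma, and of 180 subunit values 10 changed sign, the farthest being nAcRalpha-80B without sucrose 2. With library quality weights the log2 fold change was -0.0285 for nAcRalpha-80B, -0.0540 for nAcRalpha-30D, -0.0185 for nAcRalpha-18C and -0.0171 for nAcRbeta-64B. With both libraries numbered 1 left out it was -0.0254 for nAcRalpha-96Aa, -0.0610 for nAcRalpha-30D and -0.0159 for nAcRbeta-64B. Leaving out each library in turn gave -0.121 to 0.301 for nAcRalpha-80B, -0.0428 to 0.148 for nAcRalpha-30D, -0.0101 to 0.0387 for nAcRbeta-64B and 0.84 to 1.87 for nAcRbeta-21C.

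Over all tested genes limma called 8 higher and 0 lower in PQ-fed heads. The genes called higher numbered 5 with a pseudocount of 0.1, and 0 with no filter, quantile normalization, no variance trend or both libraries numbered 1 left out. They numbered 188 with quality weights, and 0 to 5 when each library was left out in turn. The genes called lower numbered 1 with no filter and 57 with quality weights. The cause was not tested. The same-numbered libraries deviated together at r = 0.41, 0.06 and 0.05 for numbers 1, 2 and 3. Those numbered 1 thus shared part of their deviations. As those numbered 2 and 3 hardly did, the number was left out of the main fit. Between same-numbered libraries nAcRbeta-21C was 1.55, 2.63 and 4.30 times as high in PQ-fed as in sucrose-fed heads, for numbers 1, 2 and 3. With a replicate block 4 genes were called higher and 0 lower, and nAcRbeta-21C had a log2 fold change of 1.22 ± 0.24 (SE), an unadjusted p of 0.00287 and an adjusted p of 0.495 from limma. With 3 libraries a group and no counts, a subunit that was not called is not shown to be unchanged.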
